A study of Mus musculus with 4 samples.

Results

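Endothelial cells (Non_Neuronal_Endo in the deposited tables, Endo here) were followed across the 4 brain sections as the spots whose deposited Endo share was above 0. Of 14809 spots in all, 448 held Endo, which is 3.03% (exact Clopper-Pearson 95% interval 2.76 to 3.31). The sections were sagittal and came from wild-type (WT) C57 mice, 1 section per group. The ketamine-treated susceptible section came from a mouse that was socially avoidant after chronic social defeat stress and then received ketamine intraperitoneally at 10 mg/kg, with the brain taken 7 days later. The susceptible section came from an avoidant mouse given saline, the resilient section from a defeated mouse without avoidance given saline, and the control section from a mouse given saline. The age of the mice is not given in the sources used here. A spot is a small region of tissue that can hold several cells, and the value of a type in a spot is the fraction of that spot which the authors assigned to it, over 67 types.

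Endothelial cells line the blood vessels of the brain and, joined by tight junctions, form the blood-brain barrier. On capillaries they share a basement membrane with pericytes (Peri), arteries and arterioles carry smooth muscle cells (SMC) around them, and astrocyte endfeet cover the vessel wall from the outside. Vascular leptomeningeal cells (VLMC) are fibroblast-like cells of the meninges and of the sheath around larger vessels, where perivascular macrophages (PVM) also lie. Neither gene counts nor positions of spots entered the comparisons, and sequencing depth is unknown. The label Endo could thus be set only against the other vascular types and PVM of the same tables.

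Endo was kept in 115 of 3477 ketamine-treated susceptible spots, 85 of 3443 susceptible spots, 144 of 4156 resilient spots and 104 of 3733 control spots. These are 3.31% (2.74 to 3.96), 2.47% (1.98 to 3.04), 3.46% (2.93 to 4.07) and 2.79% (2.28 to 3.37) of the sections, and all 4 intervals overlap with each other. The intervals cover counting error only, since neighbouring spots are not independent and there was 1 mouse per group, so no test between groups was possible. Mouse, section and cutting plane cannot be told apart from group, and the shares of a spot add up to 1, so each share is relative to the other types. A difference in a share cannot tell fewer endothelial cells from less endothelial RNA per cell. Endo led a spot, meaning that it had the highest share there, in 12 ketamine-treated susceptible, 16 susceptible, 26 resilient and 12 control spots.

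**Figure D1:**
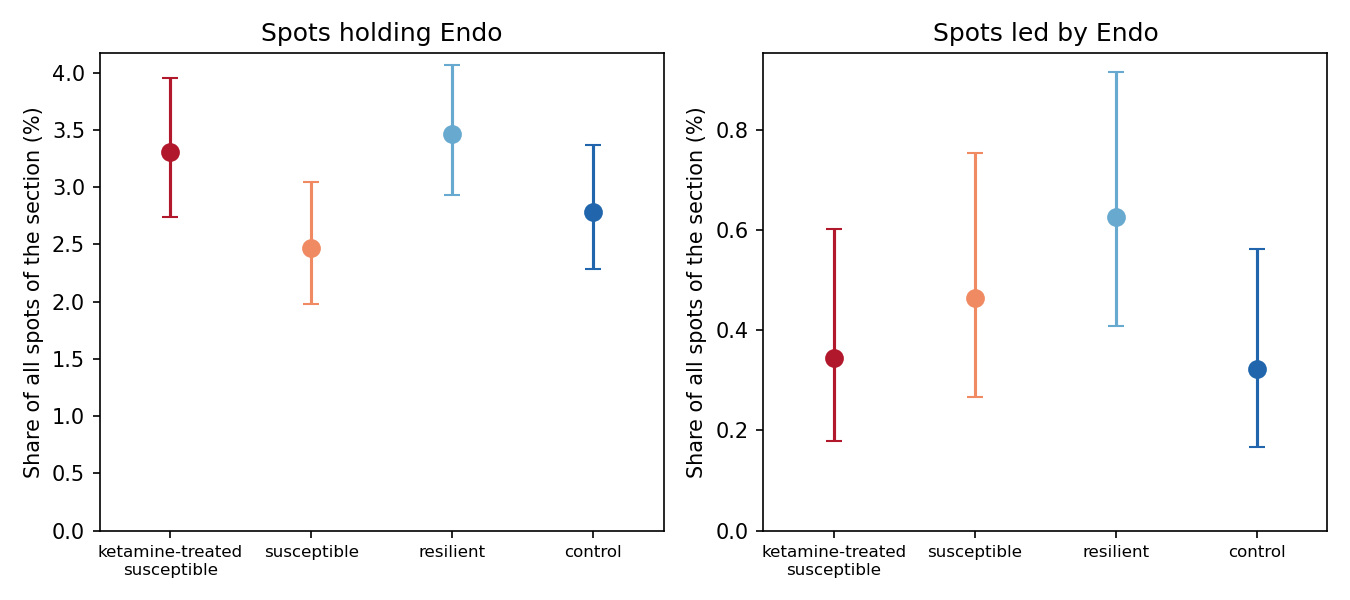
Share of all spots of each section, in percent, that held Endo (left) and that Endo led (right), with exact 95% intervals; each point is 1 section. The shares of spots holding Endo lie between 2.47% and 3.46% with overlapping intervals, and the order of the sections differs between the panels.

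Endo was usually a minor part of the spots that held it. Its share in those spots had a median of 27.7% in the ketamine-treated susceptible section (lowest 13.1%), 25% in the susceptible section (lowest 13%), 27.6% in the resilient section (lowest 12.7%) and 26.5% in the control section (lowest 13.6%). The highest share was 100% in every section, in 8 spots altogether. The lowest shares were thus near 13%, and every spot outside the group had a deposited share of exactly 0, so smaller Endo shares, if present, are not in these tables. Endo took more than 50% of 36 spots, of which 9 were ketamine-treated susceptible, 7 susceptible, 17 resilient and 3 control spots. It led 66 of its 448 spots (14.7%, 11.6 to 18.4), had the next highest share in 158 and a lower place in the rest. Among the 45 types held by at least 50 spots, only 2 led a smaller share of their spots.

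Spots with Endo held more types than spots without it. The mean was 3.03 types in Endo spots against 2.11 in Endo-free spots of the ketamine-treated susceptible section, 3.12 against 2.03 in the susceptible, 3.14 against 2.28 in the resilient and 3.11 against 2.19 in the control section. Counting Endo adds 1 type by construction, and the mean number of other types in Endo spots was 2.03, 2.12, 2.14 and 2.11. The frequency of Endo went up with the number of types kept in a spot, with 0.239% of 3344 spots with 1 type, 1.95% of 5537 with 2, 4.98% of 3953 with 3, 8.39% of 1264 with 4 and 13.2% of 189 with 5. A spot that keeps more types can more easily hold any given one, so part of this gradient is built into the count. The median Endo share was 43.2% in spots with 2 types, 27.7% with 3, 20.2% with 4 and 15.9% with 5, each below an equal split among the types kept.

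**Figure D2:**
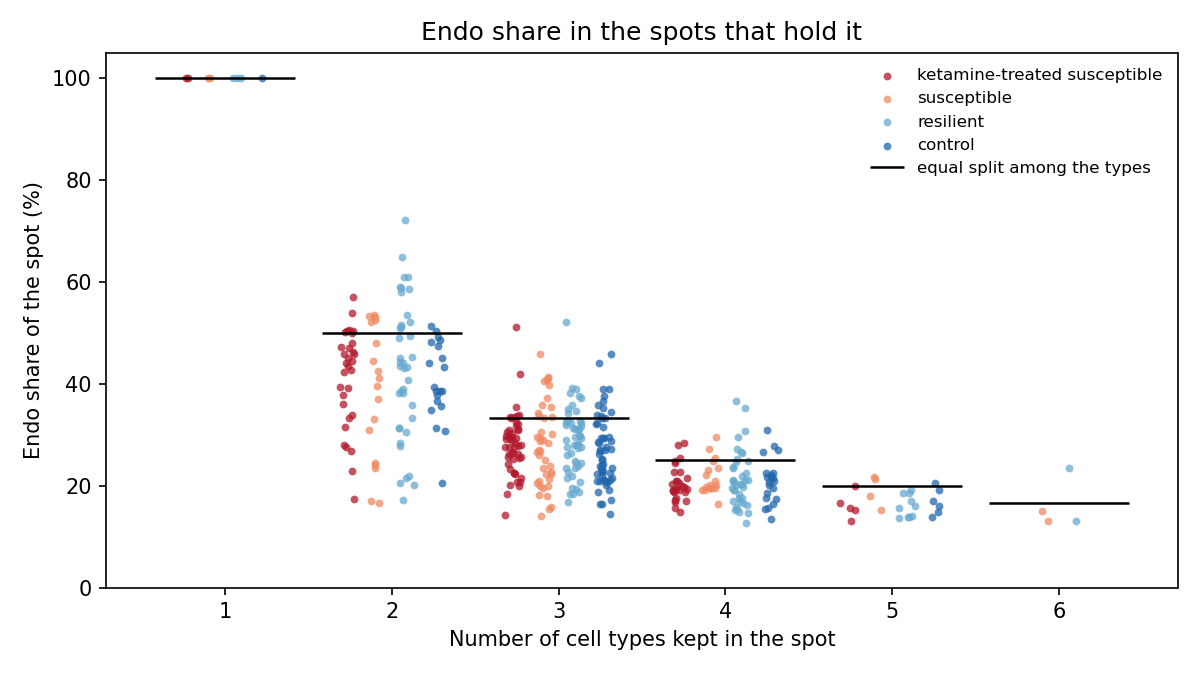
Endo share of the spot in percent against the number of cell types kept in it, 1 point per Endo spot, coloured by section; horizontal lines mark an equal split among the types. Most points with 2 to 5 types lie under the line, with medians of 43.2%, 27.7%, 20.2% and 15.9%.

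Endo was spread over 16 of the 17 deposited clusters, with the highest frequency by far in cluster 12, which VLMC led with a mean share of 42.4%, ahead of Astro at 24.4% and SMC at 8.75%. There Endo was in 22 of 87 ketamine-treated susceptible spots, 18 of 71 susceptible spots, 23 of 89 resilient spots and 15 of 60 control spots. These are 25.3% (16.6 to 35.7), 25.4% (15.8 to 37.1), 25.8% (17.1 to 36.2) and 25% (14.7 to 37.9), so the 4 sections gave nearly the same value. Cluster 12 had the highest Endo frequency in every section, and also the most types per spot of the 17 clusters, at 2.65, whose part in this was not tested. Pooled, Endo was in 25.4% of cluster 12 spots (20.6 to 30.7) and in 2.55% of all other spots (2.30 to 2.82), a ratio of 9.96. The clusters may rest on the same expression as the cell type shares, so this ratio is a description and not a test. As cluster 12 is small, it held only 78 of the 448 Endo spots (17.4%), and 370 lay outside it.

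In 6 of 17 clusters (35.3%) Endo was in over 1.5 times the share of spots outside the cluster. Besides cluster 12 these were cluster 9, which Astro and cortical layer types led, at 6.20% (4.47 to 8.35), and cluster 11, which Astro and Oligo led, at 5.85% (4.09 to 8.08). Cluster 17, led by parvalbumin interneurons, was at 5.17% with 3 Endo spots of 58, all of them among the control section's 45 spots. Cluster 3, led by Astro and L4_5_IT_TPE_ENT, was at 5.11% (3.93 to 6.52), and cluster 13, led by Astro, at 5.00% (2.69 to 8.40). The intervals of these 5 clusters overlap with each other. Without the control section, cluster 17 had Endo in 0 of 13 spots and cluster 13 in 8 of 222, and the ratio of cluster 13 to the spots outside it was 1.16, against 1.67 with all 4 sections. In cluster 13 the control section alone had Endo in 5 of 38 spots (13.2%, 4.41 to 28.1). In cluster 7, where oligodendrocytes made up 71.0% of the mean spot, Endo was in 4.38% of spots (3.17 to 5.87), and in the hippocampal cluster 10, led by Astro, DG and CA1, in 3.0% (1.81 to 4.64).

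The largest cortical cluster was among the poorest in Endo. Cluster 2, led by the deep-layer types L5_PT_RSP_ACA, L6_CT_CTX and L5_IT_CTX, had Endo in 24 of 2906 spots (0.83%, 0.53 to 1.23), although it had 2.50 types per spot on average. The upper-layer cluster 6, led by L2_IT_RSP_ACA and L2_3_IT_CTX, had 1.95% (1.18 to 3.03), with 2.46 types per spot. Cluster 4, led by Sst_Chodl, was at 0.75%, cluster 8, led by Astro, at 1.02% and cluster 5, led by Astro and L2_3_IT_ENTl, at 1.10%. These 3 clusters kept fewer types, at 1.79, 1.46 and 1.28 per spot, and 5.46%, 13.6% and 17.6% of their spots were given no type. Their part in the low Endo frequency was not tested. Cluster 14, led by L2_IT_ENTl, had Endo in 0 of 238 spots.

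**Figure D3:**
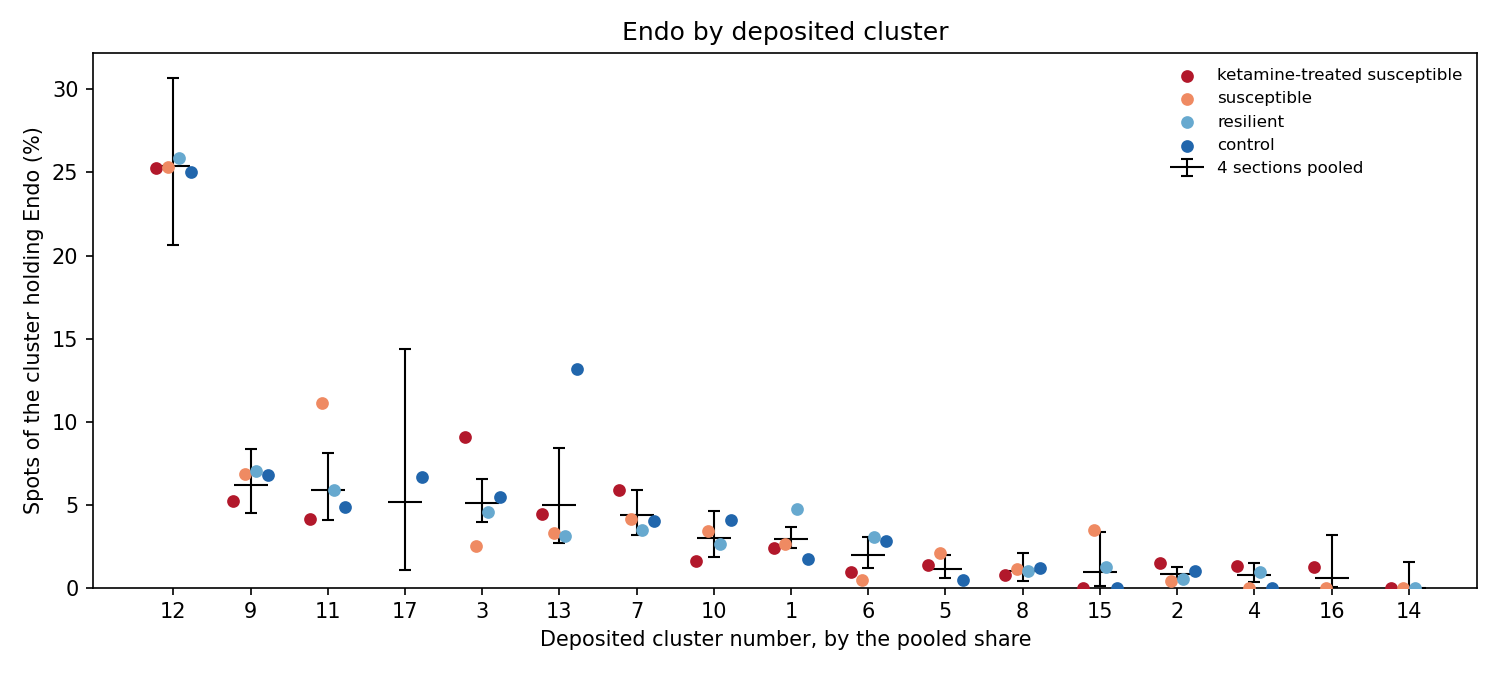
Share of the spots of each deposited cluster that held Endo, in percent, ordered by the pooled share; black marks give the 4 sections pooled with exact 95% intervals and coloured points give each section with at least 20 spots in the cluster. In cluster 12 the 4 points lie between 25% and 25.8%, while the points of most other clusters scatter below 10%.

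The vascular types and PVM divided the clusters between them in different ways. Of the Endo spots, 17.4% (14.0 to 21.2) lay in cluster 12, against 55.1% (50.5 to 59.6) of the VLMC spots, 38.8% (31.9 to 46.0) of the PVM spots, 33.9% (27.8 to 40.4) of the SMC spots and 1.14% (0.23 to 3.28) of the Peri spots. Cluster 12 held 2.07% of all spots, a value inside the Peri interval. It held 1.36% of the microglia spots and 1.34% of the oligodendrocyte precursor spots. Peri was found in 3 of the 307 spots of cluster 12, all 3 in the ketamine-treated susceptible section, whereas VLMC was in 86.3% of them and SMC and PVM in 25.4% and 24.8%. The Endo interval overlaps with that of none of these other types, and it lies between Peri and the types of larger vessels and meninges.

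In 130 of the 448 Endo spots (29.0%, 24.9 to 33.5) another vascular type (Peri, SMC or VLMC) was kept as well, against 5.25% of Endo-free spots (4.89 to 5.63). PVM was not counted as vascular in these shares. By section the shares were 26.1% against 5.65% in the ketamine-treated susceptible, 40.0% against 5.09% in the susceptible, 29.2% against 5.38% in the resilient and 23.1% against 4.88% in the control section. The Endo spots stood above the Endo-free spots in all 4 sections, with intervals that did not overlap. Much of this gap went with cluster: Endo-free spots given the section and cluster makeup of the Endo spots held another vascular type in 20.2%, a ratio of 1.44 in place of 5.53. That matched ratio was 1.25, 1.69, 1.54 and 1.26 in the ketamine-treated susceptible, susceptible, resilient and control sections. Inside cluster 12 the shares were 89.7% of Endo spots (80.8 to 95.5) and 90.8% of Endo-free spots (86.3 to 94.2), and outside it 16.2% (12.6 to 20.4) and 3.86% (3.55 to 4.19). In the other 318 spots Endo was kept without Peri, SMC or VLMC. Endo made up 25.9%, 21.5%, 28.9% and 25.7% of the summed share of Endo, Peri, SMC and VLMC in the 4 sections.

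Before clusters were taken into account, PVM and VLMC had the highest ratios of presence beside Endo. PVM was in 41 Endo spots (9.15%, 6.65 to 12.2) against 1.08% of Endo-free spots (0.92 to 1.26), a ratio of 8.48 that ranged from 6.22 to 12.2 over the sections. The 41 shared spots are 9.15% of the Endo spots and 20.9% of the PVM spots. VLMC was in 100 Endo spots (22.3%, 18.5 to 26.5) against 2.65% of Endo-free spots (2.4 to 2.93), a ratio of 8.41. These 100 spots are 20.8% of all VLMC spots. SMC was in 34 Endo spots (7.59%) against 1.36% of Endo-free spots, a ratio of 5.56. For these 3 types the ratio was above 1 in every section. Against Endo-free spots of the same sections and clusters the ratios were 1.79 for PVM, 1.35 for VLMC and 1.41 for SMC, so VLMC and SMC no longer passed 1.5-fold. By that matched ratio V3d (2.73), L2_IT_ENTm (2.33), NP_PPP (2.03) and Peri (1.90) stood above PVM, the first 3 of them with 5 to 11 shared spots. Peri, the nearest neighbour of endothelial cells on capillaries, was in 18 Endo spots (4.02%, 2.4 to 6.28) against 1.71% of Endo-free spots (1.51 to 1.94), a ratio of 2.35. By section that ratio was 0.873, 3.04, 4.35 and 1.11, from 2, 4, 10 and 2 shared spots in the ketamine-treated susceptible, susceptible, resilient and control sections. The resilient section gave 10 of the 18 shared Peri spots, and in the ketamine-treated susceptible section Peri was less frequent beside Endo than in Endo-free spots.

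The companions of Endo were counted separately inside and outside cluster 12. Inside cluster 12, PVM was in 24.4% of Endo spots and 24.9% of Endo-free spots, and VLMC in 85.9% and 86.5%, so the pooled shares were close. By section PVM went both ways, at 18.2% against 35.4% in the ketamine-treated susceptible, 27.8% against 15.1% in the susceptible, 30.4% against 30.3% in the resilient and 20.0% against 13.3% in the control section, from 3 to 7 shared spots and with overlapping intervals. SMC was in 29.5% of Endo spots (19.7 to 40.9) and 24.0% of Endo-free spots (18.6 to 30.1). Outside cluster 12, PVM was in 22 of 370 Endo spots (5.95%, 3.76 to 8.86) against 0.69% of 14132 Endo-free spots (0.56 to 0.84). VLMC was there in 33 Endo spots (8.92%, 6.22 to 12.3) against 1.29% (1.12 to 1.5) of Endo-free spots, Peri in 17 (4.59%, 2.70 to 7.25) against 1.73% (1.52 to 1.96), and SMC in 11 (2.97%, 1.49 to 5.26) against 1.00% (0.84 to 1.18). All 4 pairs of intervals outside cluster 12 are apart with the 4 sections pooled. Those of PVM and VLMC were apart without any 1 section, whereas those of SMC overlapped without the susceptible or without the resilient section. Peri rested on the resilient section, without which it was in 7 of 249 Endo spots (2.81%, 1.14 to 5.71) against 1.77% of Endo-free spots (1.52 to 2.04), with a matched ratio of 1.12. Set against Endo-free spots of the same sections and clusters, the ratios outside cluster 12 were 6.33 for PVM, 5.14 for VLMC, 2.05 for SMC and 1.93 for Peri. The matched PVM ratio was 6.73, 5.98, 10.1 and 2.75 in the ketamine-treated susceptible, susceptible, resilient and control sections, and that of VLMC was 6.12, 8.52, 3.97 and 3.75. In that order, PVM was in 6.45%, 4.48%, 8.26% and 3.37% of 93, 67, 121 and 89 Endo spots. VLMC was in 9.68%, 13.4%, 5.79% and 8.99% of them. These ratios, from few shared spots and without intervals by section, were above 1 for PVM and VLMC in all 4 sections. The matched ratio was 0.665 for SMC in the control section and 0.372 for Peri in the ketamine-treated susceptible section.

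Astrocytes were the most frequent companions of Endo, in 246 of its 448 spots (54.9%, 50.2 to 59.6) against 44.3% of Endo-free spots (43.5 to 45.1). Endo-free spots of the same sections and clusters held Astro in 54.0%, a matched ratio of 1.02, from 0.967 to 1.09 over the sections. The direction differed between the compartments. Outside cluster 12, Astro was in 56.2% of Endo spots (51 to 61.3) against 43.9% of Endo-free spots (43.1 to 44.7). The values were 57.0% against 44.7% in the ketamine-treated susceptible, 52.2% against 41.0% in the susceptible, 54.5% against 42.9% in the resilient and 60.7% against 46.9% in the control section. Set against the same sections and clusters, the ratio was 1.11. Inside cluster 12, Astro was in 48.7% of Endo spots (37.2 to 60.3) against 69.4% of Endo-free spots (63.0 to 75.3). It was lower beside Endo in all 4 sections there, at 45.5% against 70.8%, 44.4% against 73.6%, 47.8% against 69.7% and, in the control section, 60.0% against 62.2%. Over all spots, the median Astro share where it was kept was 32.5% beside Endo and 41.9% without Endo.

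Before clusters were taken into account, oligodendrocytes (Oligo) and microglia (Micro) had pooled frequencies with and without Endo whose intervals overlap. Their section ratios lay on both sides of 1. Oligo was in 32.6% of Endo spots (28.3 to 37.1) against 31.0% of Endo-free spots (30.2 to 31.8). By section the Oligo ratio was 1.27, 1.24, 1.00 and 0.885 in the ketamine-treated susceptible, susceptible, resilient and control sections. Endo-free spots of the same sections and clusters held Oligo in 37.5%, above the interval of the Endo spots. That matched ratio was 0.870, from 0.810 to 1.00 over the sections, and for Micro it was 0.923, from 0.477 to 1.44. Micro, the brain's resident macrophages, was in 15 Endo spots (3.35%, 1.89 to 5.46) against 3.49% of Endo-free spots (3.19 to 3.80), and its ratio was 1.38, 0.798, 0.467 and 1.49 in the ketamine-treated susceptible, susceptible, resilient and control sections, from 5, 2, 3 and 5 shared spots. Oligodendrocyte precursors (OPC) shared 4 spots with Endo. The most frequent set of companions was Astro alone, in 45 Endo spots, followed by Astro with Oligo in 25, Oligo alone in 20 and Astro with VLMC in 19. There were 192 different sets of companions in the 448 spots.

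Of 44 other types held by at least 50 spots, 9 (20.5%) were at least 1.5 times as frequent in Endo spots as in Endo-free spots, and 21 (47.7%) were at least 1.5 times less frequent. With each of the 45 types taken in the place of Endo, the more frequent companions numbered 2 (L2_IT_RSPv) to 12 (L2_IT_ENTm). The less frequent ones numbered 14 (Astro) to 36 (DG), so both counts for Endo lie inside the range over all types. Besides PVM, VLMC, SMC and Peri, the types more frequent beside Endo were 5 neuronal types with few shared spots. V3d shared 11 spots with Endo (2.46%, 1.23 to 4.35) against 0.72% of Endo-free spots (0.59 to 0.88), with a ratio above 1 in all 4 sections. L2_IT_ENTm (5 shared spots), NP_PPP (6), L2_3_IT_TPE (4) and L5_PPP (6) had ratios of 2.76, 2.00, 1.54 and 1.5, and for all 4 the interval overlaps that of Endo-free spots. Among spots with at least 2 types, 7 types (15.9%) were at least 1.5 times as frequent beside Endo and 23 (52.3%) at least 1.5 times less frequent. Within sections and clusters these counts were 7 (15.9%) and 16 (36.4%). SUB, the tenth type by ratio, shared 3 spots with a ratio of 1.39.

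The less frequent types were all neuronal. Glutamatergic types as a class were in 46.0% of Endo spots (41.3 to 50.7) against 65.8% of Endo-free spots (65.0 to 66.6), and GABAergic types in 15.4% (12.2 to 19.1) against 22.6% (21.9 to 23.3). Set against the same sections and clusters, the ratios were 0.824 and 0.800. Both classes were less frequent beside Endo in every section, with ratios of 0.699, 0.705, 0.645 and 0.768 for glutamatergic and 0.591, 0.612, 0.768 and 0.687 for GABAergic types in the ketamine-treated susceptible, susceptible, resilient and control sections. Among the glutamatergic types with CTX in their name, at least 1 of 10 was in 10.0% of Endo spots against 21.1% of Endo-free spots, a ratio of 0.475. Within sections and clusters it was 0.779, against 12.9%. For glutamatergic types grouped by other name parts, this matched ratio was 0.626 for RSP, 0.736 for ENT and 0.752 for TPE. It was 0.738 for the hippocampal types (CA1, CA2, CA3 and DG). Types with SUB in their name went the other way, in 4.91% of Endo spots (3.10 to 7.34) against 3.96% of Endo-free spots (3.64 to 4.29). Their matched ratio was 1.32.

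Among the less frequent types, 5 shared no spot with Endo, a share whose exact interval reaches up to 0.82% of the 448 Endo spots. L2_3_IT_ENTl, layer 2/3 neurons of the lateral entorhinal area, was in 460 Endo-free spots (3.20%), L2_IT_ENTl in 252 (1.75%), the hippocampal pyramidal type CA3 in 118 (0.82%), the somatostatin interneurons Sst in 94 (0.65%) and L6_IT_ENTl in 63 (0.44%). Endo-free spots with the section and cluster makeup of the Endo spots would give 1.23% for L2_3_IT_ENTl, 0.64% for L2_IT_ENTl, 0.92% for CA3, 0.40% for Sst and 0.30% for L6_IT_ENTl. The values of L2_IT_ENTl, Sst and L6_IT_ENTl lie under the upper bound of 0.82%, and that of CA3 lies close to it. For these types, the absence beside Endo cannot be told from the matched frequency or hardly so. CR, named for Cajal-Retzius cells, shared 3 spots with Endo (0.67%, 0.14 to 1.94) against 4.60% of Endo-free spots (4.27 to 4.96), a ratio of 0.145 overall and 0.172 within sections and clusters. L5_IT_TPE_ENT shared 3 spots (ratio 0.232), Sncg interneurons 1 (0.248), Sst_Chodl neurons 8 (0.323) and Ndnf_HPF interneurons 4 (0.324). Within sections and clusters these ratios were 0.482 for L5_IT_TPE_ENT, 0.319 for Sncg, 0.689 for Sst_Chodl, long-range somatostatin neurons, and 0.439 for Ndnf_HPF.

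**Figure D4:**
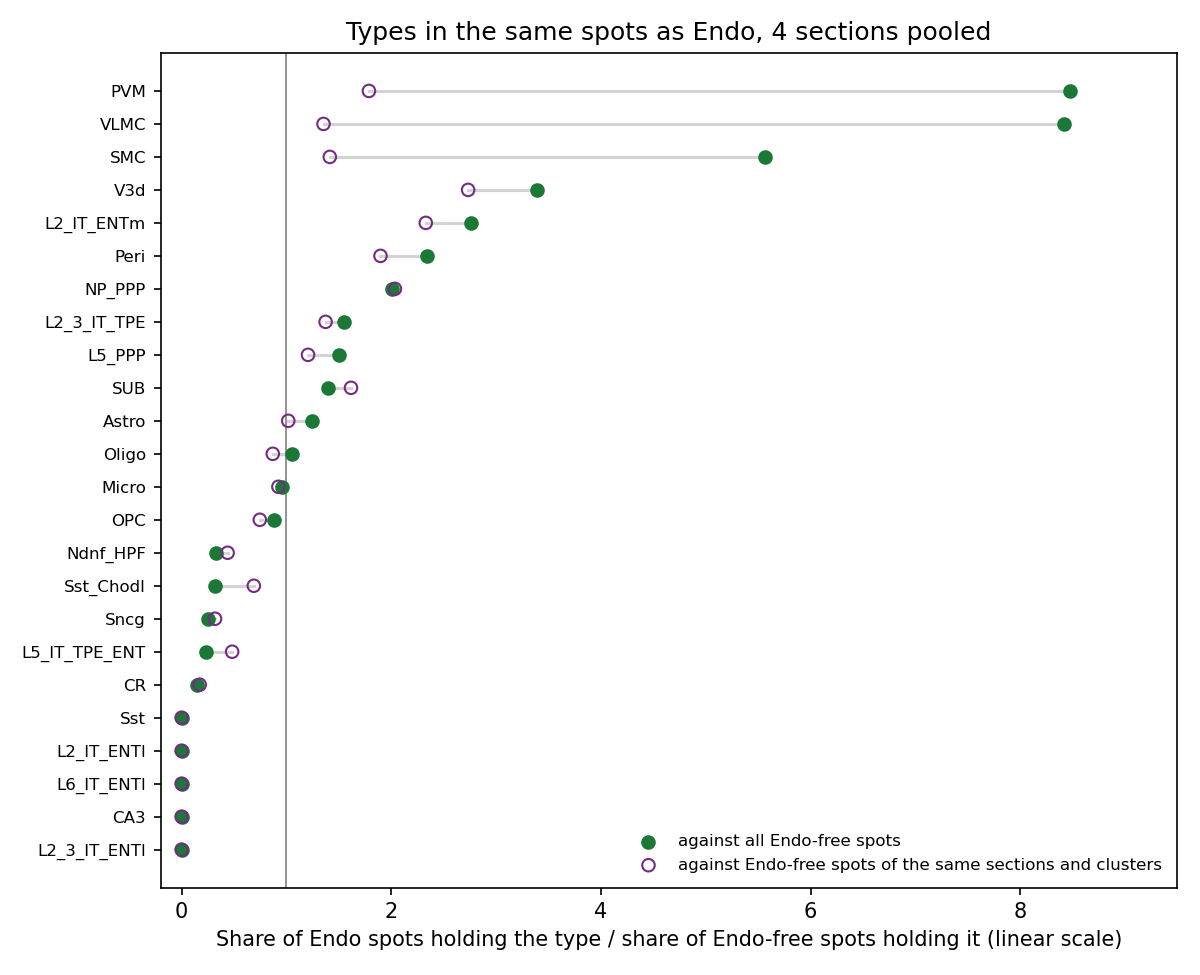
Ratio of the share of Endo spots holding each named type over the share of Endo-free spots holding it (horizontal axis, linear), 4 sections pooled, with the 10 types at each end and the other non-neuronal types. Filled points use all Endo-free spots and open points use Endo-free spots of the same sections and clusters: PVM lies at 8.48 and 1.79, VLMC at 8.41 and 1.35, and 5 types share no spot with Endo.

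The remainder of each Endo spot, outside its Endo share, was compared with the makeup of spots that held a type but no Endo. Other vascular types filled 18% of this remainder in Endo spots, against 11% in Endo-free spots of the same sections and clusters and 2.39% in all Endo-free spots. By section the values were 18.1% against 11.3% in the ketamine-treated susceptible, 24.9% against 13.3% in the susceptible, 18.5% against 10.5% in the resilient and 11.8% against 9.69% in the control section, each Endo value set against Endo-free spots of the same clusters. Microglia and macrophages filled 4.63% against 2.60%, Astro 29.3% against 25.2%, the oligodendrocyte lineage 17.7% against 20.3%, glutamatergic types 24.2% against 33.2% and GABAergic types 6.15% against 7.69%. In the susceptible section Astro went the other way, at 24.4% against 26%. Glutamatergic neurons were lower in the remainder of Endo spots than in the matched spots in all 4 sections.

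**Figure D5:**
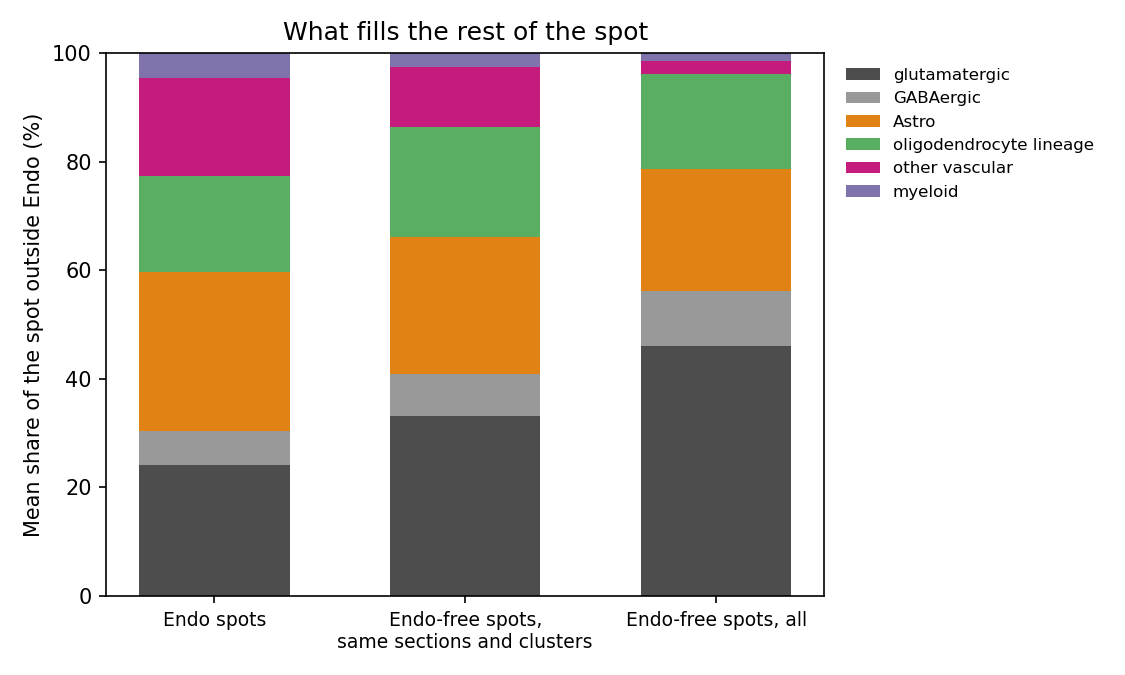
Mean makeup of the part of a spot outside Endo, in percent, for 440 Endo spots that held another type, for Endo-free spots given the section and cluster makeup of the Endo spots, and for all 13859 Endo-free spots with a type. Other vascular types fill 18%, 11% and 2.39%, and glutamatergic types 24.2%, 33.2% and 45.9%.

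The ketamine-treated susceptible section was set against the susceptible section to ask what differed after the drug. Endo was in 3.31% of spots against 2.47%, a ratio of 1.34 with overlapping intervals. In the same comparison 6 of 31 types held by at least 1% of spots in either section differed by at least 1.5-fold (19.4%), with 2 higher (6.45%) and 4 lower (12.9%), and Endo was not among them. Of the difference of 0.839 percentage points, 0.469 came from unequal frequencies within clusters of at least 20 spots in both sections. The remaining 0.370 holds unequal cluster proportions and any smaller clusters. Within clusters the direction was mixed, with 7 of 16 shared clusters higher, 8 lower and 1 without Endo in either. Cluster 3 had the one pair of intervals that did not overlap, with 19 of 210 ketamine-treated susceptible spots (9.05%, 5.54 to 13.8) against 7 of 278 susceptible spots (2.52%, 1.02 to 5.12). Without cluster 3 the ratio for the section was 1.19. Spots led by Endo went the other way, at 0.345% (0.178 to 0.602) in the ketamine-treated susceptible section against 0.465% (0.266 to 0.754) in the susceptible section.

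Against the control section, the ketamine-treated susceptible section had Endo in 3.31% of spots against 2.79%, a ratio of 1.19, and no cluster had intervals apart. There 7 of 29 types differed by at least 1.5-fold (24.1%), with 5 higher (17.2%) and 2 lower (6.9%). Cluster 3 stood at 9.05% against 5.45% (3.26 to 8.48), with overlapping intervals. Against the resilient section the ratio was 0.955, with 3.31% against 3.46%, where 13 of 35 types differed by at least 1.5-fold (37.1%), with 5 higher (14.3%) and 8 lower (22.9%). The ratio was 1.11 without cluster 1, and 0.552 for spots led by Endo, with 0.345% against 0.626% and overlapping intervals.

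The susceptible section was set against the control and the resilient sections to ask what went with avoidance after stress. Endo was in 2.47% of susceptible spots against 2.79% of control spots, a ratio of 0.886, and 12 of 31 types differed by at least 1.5-fold in that comparison (38.7%), with 9 higher (29%) and 3 lower (9.68%). Spots led by Endo went the other way, at 0.465% (0.266 to 0.754) in the susceptible section against 0.321% (0.166 to 0.561) in the control section, a ratio of 1.45. Against the 3.46% of resilient spots the ratio was 0.713, with 14 of 36 types past 1.5-fold (38.9%), of which 5 were higher (13.9%) and 9 lower (25%). The intervals overlap in both comparisons. Of the −0.996 points between the susceptible and resilient sections, −0.545 came from within clusters of at least 20 spots in both. The remaining −0.451 holds unequal cluster proportions and any smaller clusters. No cluster had intervals apart in either comparison.

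The resilient section was set against the control section to ask what went with stress without avoidance. Endo was in 3.46% of spots against 2.79%, a ratio of 1.24 with overlapping intervals, and 14 of 35 types differed by at least 1.5-fold (40%), with 10 higher (28.6%) and 4 lower (11.4%). By the share of spots holding it, Endo passed 1.5-fold in none of the 6 comparisons. By the share of spots it led, the ratio passed 1.5-fold in 2 of them, with overlapping intervals in both. It was 1.95 for resilient against control, with 0.626% (0.409 to 0.915) against 0.321% (0.166 to 0.561). For ketamine-treated susceptible, at 0.345% (0.178 to 0.602), against resilient it was 0.552. How many other types pass 1.5-fold by this measure is not given here. Cluster 1, led by Oligo, Astro and L2_IT_RSPv, had Endo in 42 of 885 resilient spots (4.75%, 3.44 to 6.36) against 16 of 929 control spots (1.72%, 0.99 to 2.78), and these intervals did not overlap. Cluster 1 was at 2.4% in the ketamine-treated susceptible and 2.64% in the susceptible section. It also held 15 of the 26 resilient spots led by Endo and 5 of the 12 control spots led by Endo. In the ketamine-treated susceptible section it held 1 of 12 such spots and in the susceptible section 3 of 16. Without cluster 1 the resilient and control sections had Endo in 3.12% and 3.14% of spots, a ratio of 0.994. Over the 6 comparisons, 2 of the 85 cluster pairs with at least 20 spots on both sides had intervals apart (2.35%).

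The other vascular types and PVM did not follow one order over the sections. Peri was in 1.98%, 1.63%, 1.78% and 1.74% of ketamine-treated susceptible, susceptible, resilient and control spots, and SMC in 1.47%, 1.6%, 1.68% and 1.45%, each with overlapping intervals. VLMC was in 3.68%, 3.22%, 3.34% and 2.76% of spots in the same order. PVM was in 1.64%, 0.99%, 1.61% and 1.02% of spots, with intervals that overlap, as do those of VLMC. Like Endo, PVM was more frequent in the ketamine-treated susceptible and resilient sections than in the susceptible and control sections. Unlike Endo, it passed 1.5-fold between either of the former and either of the latter.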

How the data were processed

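For every spot the deposited tables give a fraction for each of 67 cell types and a cluster number, per the file headers. The fractions of a spot sum to 1. The submitters' processing notes name the genome build mm10. How the fractions and clusters were made, and whether a minimum share was applied, is not given in the sources used here.

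A spot held a type when its fraction was above 0. Shares of spots carry exact Clopper-Pearson 95% intervals (scipy 1.17.1, pandas 2.3.3), which cover counting error only, and with 1 section per group no p-value was computed. Differences between sections were split by cluster, using clusters with at least 20 spots on both sides. The part for cluster proportions is what remains after the part within these clusters, so it also holds the smaller clusters. The matched values weight Endo-free spots to the section and cluster makeup of the Endo spots. Both calculations were tested on simulated data in which types were drawn independently within clusters. The simulated spots had no shares that sum to 1 and no minimum share, so the effect of these limits was not tested. Named companions were the other non-neuronal types and up to 10 types per direction by ratio, among those in at least 50 spots. The members and lists were chosen with earlier results of these data known. The same spot barcode can occur in several sections: 2503 of 4718 barcodes were in all 4, and 419 of the 433 barcodes with Endo held it in 1 section only. The t-SNE coordinates were not used.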

Additional observations from a re-analysis of the deposited data

How the results depend on the processing

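The ratios of the share of spots holding Endo were recomputed under 9 alternatives per comparison, of which leaving out cluster 1 or cluster 3 was chosen after seeing the data. Counting spots led by Endo moved 4 of the 6 ratios outside the range allowed by the counting intervals. They became 0.743 for ketamine-treated susceptible against susceptible, 0.552 for ketamine-treated susceptible against resilient, 1.45 for susceptible against control and 1.95 for resilient against control. Only 12 to 26 spots per section were led by Endo. Over all alternatives the ratios ran from 0.743 to 1.42 for ketamine-treated susceptible against susceptible, 1.07 to 1.27 against control and 0.552 to 1.11 against resilient. They ran from 0.775 to 1.45 for susceptible against control, 0.668 to 0.833 for susceptible against resilient and 0.994 to 1.95 for resilient against control. Ratios above 1 throughout were those of ketamine-treated susceptible against control, and ratios below 1 throughout those of susceptible against resilient. The number of clusters with over 1.5 times the Endo frequency was 5 to 7, against 6. The number of types at least 1.5 times as frequent beside Endo was 7 to 10, against 9. Within sections and clusters it was 7, of which 5 were among the 9, and VLMC and SMC were no longer among them. The number of less frequent types was 16 to 28, against 21, the highest where types in at least 20 spots were counted. Leaving out cluster 12 for these counts was added after seeing the data. Leaving out each section in turn for the companions outside cluster 12 and for the 6 clusters was also added after seeing the data: without the resilient section the matched Peri ratio was 1.12 in place of 1.93, and without the control section the ratios of clusters 13 and 17 were 1.16 and 0, while the other results kept their direction and stayed within the counting intervals. No paired analysis was possible because each group had 1 section. The cause of the changes was not tested. The number of Endo spots, 85 to 144 per section, limits what can be told apart between sections.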
